A study of Drosophila melanogaster with 2 samples.

Results

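The aminoacyl-tRNA synthetase genes are the 33 protein-coding genes of the Ensembl BDGP6 annotation whose symbol is 1 or 2 amino acid abbreviations followed by RS, with an optional suffix -m. They were picked by symbol alone from 13945 protein-coding genes. The suffix marks 15 members that encode mitochondrial enzymes. The other 18 are called cytosolic here, although some may also serve mitochondria. The subunit genes alpha-PheRS and beta-PheRS do not match the symbol rule and are described with other genes of the pathway.

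Binding was measured in 1 group with 2 biological replicates, numbered 1 and 3. Each was whole Drosophila melanogaster embryos, 0 to 24 h old and of both sexes, from a transgenic line with GFP fused to the C terminus of NC2beta. Chromatin was precipitated with an antibody against GFP and sequenced. The labels used here do not name the promoter of the transgene, and whole pooled embryos mix all cell types, so binding in few cells and weak binding in many cannot be told apart. No untagged or other control sample was analysed, so any signal that open promoters give without the tagged protein was not tested. Read totals are unknown, and a single group allows no test between groups.

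Aminoacyl-tRNA synthetases join each amino acid to its matching tRNA, the step that fixes the genetic code. Cytosolic enzymes charge the tRNAs used by ribosomes of the cytoplasm, and a second set, also encoded in the nucleus, charges those of mitochondria. Such genes are needed in every cell. NC2beta is a subunit of NC2, a cofactor that binds the TATA-binding protein on promoter DNA and is known both to repress and to activate transcription according to the core promoter.

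A member was called bound when the summit of a peak of the authors' optimal set lay within 250 bp of any of its annotated transcription start sites (TSSs). By that rule 9 of 33 members were bound (27.3%, 95% exact interval 13.3 to 45.5), against 17.6% of all protein-coding genes. The bound members were SerRS, AsnRS, ThrRS, GluProRS, IleRS, GlnRS and ArgRS among the cytosolic genes, and LeuRS-m and ArgRS-m among the mitochondrial genes. The interval covers counting error only and includes the share over all genes.

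The promoters of the 3 cytosolic and 2 mitochondrial members with the highest optimal peaks are shown along the coding strand from Release 6 (dm6) of the genome, with that of LysRS, the highest member outside the optimal set. They run up to 150 bases before the TSS to 30 bases from it, and are shorter where an exon of a neighbouring gene lies upstream. Capitals mark matches to the elements described further on. In ThrRS the capitals mark Motif 1, in LeuRS-m an E-box, in ArgRS-m an initiator followed by an E-box, and in LysRS Motif 1 followed by Motif 7.
SerRS (chr2L:3037374-3037440, minus strand): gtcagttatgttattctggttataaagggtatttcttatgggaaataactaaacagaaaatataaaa
AsnRS (chr2L:19131925-19132104, minus strand): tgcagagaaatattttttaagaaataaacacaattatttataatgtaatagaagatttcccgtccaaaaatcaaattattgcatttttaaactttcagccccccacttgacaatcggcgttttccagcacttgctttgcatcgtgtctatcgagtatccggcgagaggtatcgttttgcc
ThrRS (chr2L:12103601-12103780, plus strand): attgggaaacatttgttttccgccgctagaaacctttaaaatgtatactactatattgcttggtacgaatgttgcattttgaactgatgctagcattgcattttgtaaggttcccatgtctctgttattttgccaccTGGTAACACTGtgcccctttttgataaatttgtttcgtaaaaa
LeuRS-m (chr3L:4825703-4825882, plus strand): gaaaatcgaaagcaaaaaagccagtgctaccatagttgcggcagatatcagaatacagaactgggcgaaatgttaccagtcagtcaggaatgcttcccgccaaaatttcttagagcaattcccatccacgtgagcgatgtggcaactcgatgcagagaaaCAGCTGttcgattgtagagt
ArgRS-m (chr3R:7886895-7887074, plus strand): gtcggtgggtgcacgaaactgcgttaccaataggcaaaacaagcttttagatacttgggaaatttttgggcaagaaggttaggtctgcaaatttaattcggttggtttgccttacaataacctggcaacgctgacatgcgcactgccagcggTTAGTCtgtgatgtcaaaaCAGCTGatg
LysRS (chrX:9608855-9608975, minus strand): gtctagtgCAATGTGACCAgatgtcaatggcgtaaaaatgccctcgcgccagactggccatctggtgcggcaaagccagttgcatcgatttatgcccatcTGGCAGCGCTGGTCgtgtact
The AsnRS and SerRS stretches held no match, so the highest pair of peaks in the group lay at promoters with none of the searched elements in the printed bases. The letters TATAAA in the SerRS stretch begin nearer to the TSS than the window searched for that element. The stretch is short because the TSS of CG17260 lies 8 bp upstream on the other strand.

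**Figure D1:**
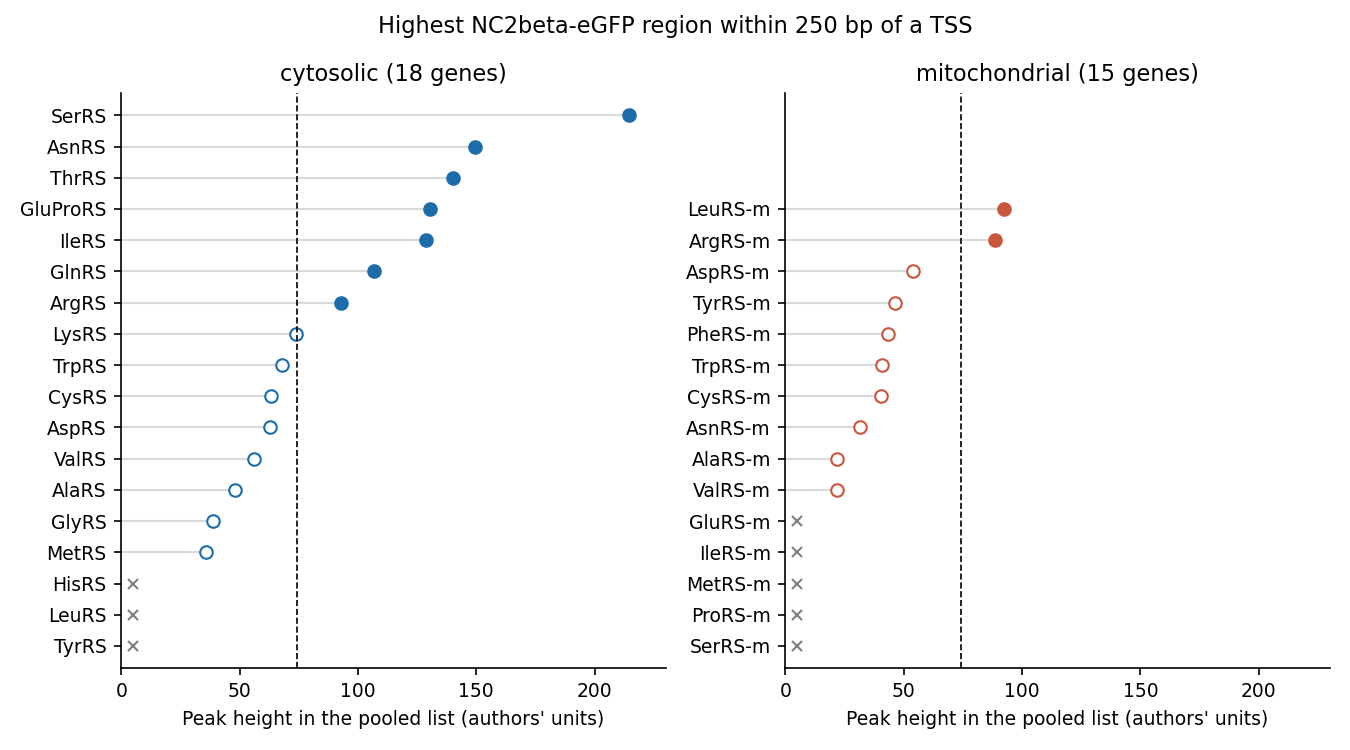
Height of the highest region of the pooled list with a summit within 250 bp of a TSS, in the authors' units, for 18 cytosolic (left) and 15 mitochondrial (right) genes. Filled points are optimal peaks, open points lower regions, crosses genes with no region, and the dashed line is the lowest optimal height of 74.1. The 7 filled cytosolic points run from 93.0 to 215, and the 2 filled mitochondrial points are at 92.5 and 88.6.

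The members' peaks were of ordinary size for the series. Heights are the authors' peak values, whose unit the sources do not state, and can be compared only within a list. The 9 bound members had pooled heights from 88.6 to 215, with a median of 129, beside a median of 114 over all 2450 bound genes. The optimal peaks ranged from 74.1 to 1496. For each replicate the nearest region within 250 bp of the pooled summit was taken, and its height was divided by that replicate's median over the optimal peaks, 68.8 in replicate 1 and 46.1 in replicate 3. A relative height of 1 is therefore a typical optimal peak.

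SerRS, the seryl-tRNA synthetase gene, had the highest peak of the group. It covered chr2L:3037403-3037536, ranked 559 of 3897 optimal peaks and had heights of 137 in replicate 1 and 80.8 in replicate 3. Its relative height was 1.87 ± 0.170 (SD, n = 2), the only mean above 1.5 among the members. AsnRS, for asparagine, followed with a pooled height of 149.7 at chr2L:19131829-19132228. Its heights were 86.1 in replicate 1 and 62.2 in replicate 3, and its relative height was 1.30 ± 0.0689 (SD, n = 2). The replicates thus placed AsnRS closely together, above the typical optimal peak in each.

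ThrRS, for threonine, had a pooled height of 140.4 at chr2L:12103431-12103830, with 93.6 in replicate 1 and 49.7 in replicate 3. Its relative height was 1.22 ± 0.199 (SD, n = 2). GluProRS encodes a bifunctional enzyme that charges tRNAs for both glutamate and proline. Its peak at chr3R:23958256-23958655 had a pooled height of 130.3, with 75.3 in replicate 1 and 57.0 in replicate 3. The relative height was 1.17 ± 0.101 (SD, n = 2). GluProRS has 2 annotated TSSs, and the peak lay at the upstream one.

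IleRS, for isoleucine, had a pooled height of 129 at chr3L:22288329-22288728 and the widest spread between replicates. Its heights were 59.7 in replicate 1 and 67.5 in replicate 3, which are relative heights of 0.868 and 1.47. It was the member with the second highest value in replicate 3 but the sixth highest in replicate 1. GlnRS, for glutamine, had a pooled height of 107 at chr3R:25265602-25266001. Its heights were 66.8 in replicate 1 and 39.5 in replicate 3, and its relative height was 0.914 ± 0.0804 (SD, n = 2).

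ArgRS, for arginine, was the lowest of the bound cytosolic members. Its peak at chrX:15844052-15844451 had a pooled height of 93.0, with 44.7 in replicate 1 and 46.9 in replicate 3. The relative heights were 0.649 and 1.02. The value of replicate 1 is below 46.7, the lowest of the 3897 highest regions in that replicate, so replicate 3 alone would call ArgRS and replicate 1 alone would not.

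LeuRS-m, for mitochondrial leucine, had a pooled height of 92.5 at chr3L:4825590-4825989. Its heights were 52.0 in replicate 1 and 41.8 in replicate 3, with a relative height of 0.832 ± 0.107 (SD, n = 2). ArgRS-m, for mitochondrial arginine, had a pooled height of 88.6 at chr3R:7886697-7887096, the lowest of the 9. Its heights were 56.4 in replicate 1 and 32.1 in replicate 3, and its relative height was 0.758 ± 0.0880 (SD, n = 2). Both mitochondrial peaks were below the typical optimal peak in each replicate, while 4 of the 7 cytosolic ones (SerRS, AsnRS, ThrRS and GluProRS) were above it in each. Cytosolic GlnRS was also below it in each, at 0.971 in replicate 1 and 0.857 in replicate 3. IleRS and ArgRS were below it in replicate 1 only.

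**Figure D2:**
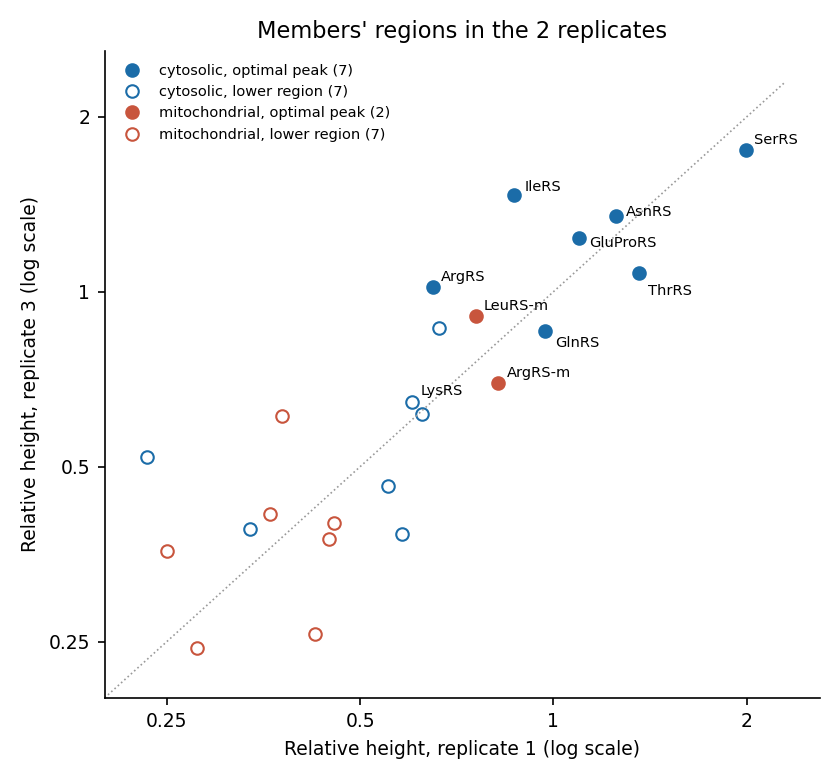
Relative height of each member's region in replicate 1 (horizontal) and replicate 3 (vertical), both on log scales, for the 23 members with a region in both replicates; colours give the class and filled points the 9 optimal peaks. SerRS stands highest in both, at 1.99 in replicate 1 and 1.75 in replicate 3, and IleRS lies farthest from the dotted line of equal values among the bound members.

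The replicates taken alone differed in 2 members, ArgRS and AlaRS. From the 3897 highest regions of replicate 1 alone, 8 members were bound (17.9% of all genes), and from those of replicate 3 alone 10 were (16.4% of all genes). The lists had 8 bound members in common with each other and with the pooled call, ArgRS being absent in replicate 1. The additional member in replicate 3 was AlaRS, for alanine, with a height of 31.1 against a lowest value of 30.6 for that replicate's highest 3897. No region of replicate 1 lay within 250 bp of the AlaRS summit, the nearest being 272 bp away. Between replicates the log2 ratio of relative heights, replicate 1 over replicate 3, ranged from −0.75 at IleRS to 0.33 at ThrRS, with 4 members higher in replicate 1 and 5 in replicate 3. That order depends on the scaling: with each replicate divided by the median of its whole list, 6 were higher in replicate 1 and 3 in replicate 3, and the median log2 ratio was 0.13 in place of −0.11.

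Cytosolic genes were bound more often than mitochondrial ones. Of 18 cytosolic genes 7 were bound (38.9%, 95% exact interval 17.3 to 64.3), and of 15 mitochondrial genes 2 (13.3%, interval 1.66 to 40.5), beside 17.6% of all genes. The intervals overlap widely, genes are not replicates of a class, and the difference was not tested. In replicate 1 alone the counts were 6 cytosolic and 2 mitochondrial genes, and in replicate 3 alone 8 and 2. Among the 50% of optimal peaks that were highest, 5 cytosolic and 0 mitochondrial genes were left, beside 9.01% of all genes. With a limit of 100 bp in place of 250 bp the counts were 4 cytosolic genes and 1 mitochondrial gene, beside 10.5% of all genes.

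With weaker regions counted as well as optimal peaks, more genes of both classes had a region. A pooled region of any height lay within 250 bp of a TSS for 25 of 33 members (75.8%), against 48.5% of all protein-coding genes. It did so for 15 of 18 cytosolic (83.3%) and 10 of 15 mitochondrial genes (66.7%). Of the 25 members with a region, 9 had it in the optimal set, beside 36.2% of all genes with a region, so the share that reached the optimal set was near that of all such genes. The median height of the regions was 74.0 for cytosolic and 42.0 for mitochondrial genes, beside 56.4 for all 6767 genes with a region.

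LysRS, for lysine, lay just outside the optimal set. Its pooled height was 74.04, against 74.14 for the lowest optimal peak, and only 12 regions separated it from the set. Its heights were 41.4 in replicate 1 and 29.8 in replicate 3, a relative height of 0.625 ± 0.0319 (SD, n = 2). On the other side of the limit, the lowest member inside the set was ArgRS-m at 88.6. The call of LysRS as unbound in the pooled list thus rests on a height just below the limit. Neither replicate alone called it. The lowest of the 3897 highest regions was 46.7 in replicate 1 and 30.6 in replicate 3.

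TrpRS (tryptophan) and CysRS (cysteine) were the next cytosolic genes. TrpRS had a pooled height of 67.9, with 42.9 in replicate 1 and 28.4 in replicate 3, and CysRS one of 63.4, with 38.0 in replicate 1 and 21.3 in replicate 3. The remaining 5 cytosolic genes below the set, AspRS, ValRS, AlaRS, GlyRS and MetRS, had pooled heights from 35.9 to 62.8. The AspRS summit lay 220 bp upstream of the nearest of its 3 annotated TSSs. The matched summits lay on opposite sides of the pooled one, at 233 bp in replicate 1 and −63 bp in replicate 3. With those matches, which may be different regions, its relative height was 0.765 ± 0.142 (SD, n = 2), close to the 0.758 of bound ArgRS-m.

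Among mitochondrial genes below the set AspRS-m was highest. It had a pooled height of 53.9, with 26.0 in replicate 1 and 28.2 in replicate 3. TyrRS-m followed with a pooled height of 46.5 (31.4 in replicate 1 and 18.4 in replicate 3), then PheRS-m with 43.4 (30.8 and 17.3 in the same order). The remaining 5, TrpRS-m, CysRS-m, AsnRS-m, AlaRS-m and ValRS-m, had heights from 21.9 to 40.7. All 8 had a lower pooled height than TrpRS, CysRS and AspRS, while they overlapped with the lowest cytosolic genes. AlaRS-m had no region of replicate 1 within 250 bp of its summit.

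No region of the pooled list lay within 250 bp of a TSS of HisRS, LeuRS and TyrRS among cytosolic genes, and of GluRS-m, IleRS-m, MetRS-m, ProRS-m and SerRS-m among mitochondrial ones. For LeuRS and TyrRS the nearest summit was 292 and 344 bp from the TSS, so both had a region within 500 bp. For SerRS-m, HisRS and IleRS-m it was 512, 900 and 902 bp away, and for GluRS-m, MetRS-m and ProRS-m 2469, 2911 and 3979 bp. The list holds 30000 regions down to a height of 18.0, so these promoters fell below that level or had their summit elsewhere.

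**Figure D3:**
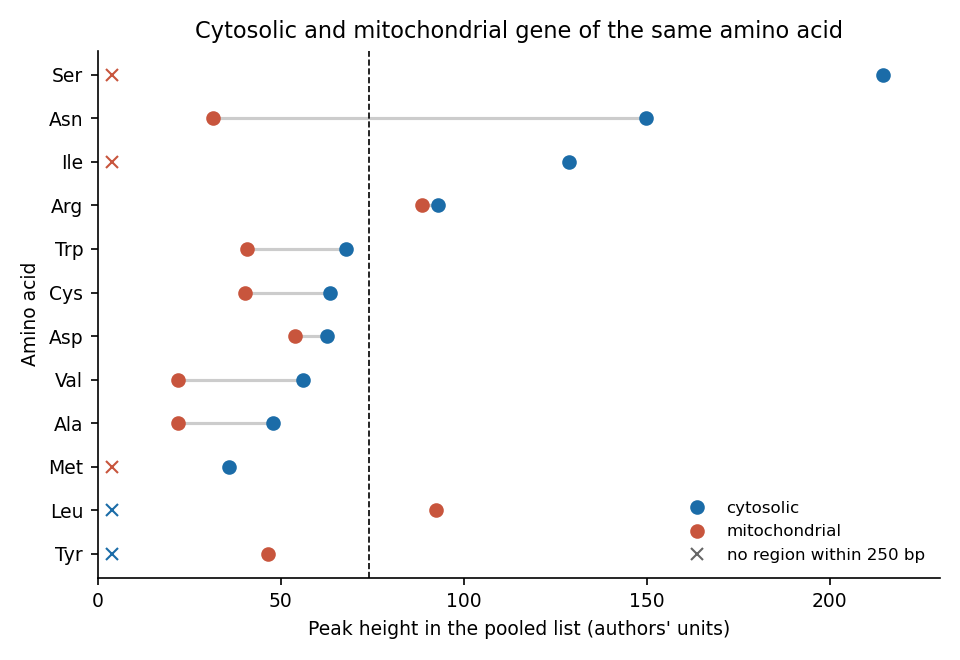
Pooled height in the authors' units of the cytosolic (blue) and the mitochondrial (red) gene for the 12 amino acids that have both; crosses mark genes with no region within 250 bp and the dashed line the lowest optimal height of 74.1. The cytosolic gene is higher for 10 amino acids, and the mitochondrial gene for leucine and tyrosine.

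For 12 amino acids a cytosolic and a mitochondrial member can be set side by side. By pooled height the cytosolic gene had the higher region for 10 of them, counting a gene without a region as lower. It did so for 7 of the 7 where both had a pooled region. In replicate 1 the order was not the same for all of these, as arginine was reversed. For alanine it could not be given, as neither AlaRS nor AlaRS-m had a replicate 1 region within 250 bp of its pooled summit. The gap was widest where both had a region at asparagine, with 149.7 at AsnRS and 31.6 at AsnRS-m. For serine, SerRS had the highest peak of all members (215) and SerRS-m had no region. Arginine was the amino acid with both genes bound, at nearly equal pooled heights of 93.0 for ArgRS and 88.6 for ArgRS-m. The replicates ordered this pair in opposite ways. In replicate 1 ArgRS had 44.7 and ArgRS-m 56.4, and in replicate 3 ArgRS had 46.9 and ArgRS-m 32.1.

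Leucine went the other way. LeuRS had no region within 250 bp and LeuRS-m was bound with a height of 92.5. Tyrosine did too, with no region at TyrRS and 46.5 at TyrRS-m. Glutamate and proline share GluProRS in the cytosol, which was bound (130.3), while GluRS-m and ProRS-m had no region. Of the remaining cytosolic genes, which have no member with the suffix, GlnRS and ThrRS were bound, LysRS was at the limit, GlyRS had a height of 38.9 and HisRS had no region.

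The bound members had their summit upstream of the TSS without exception. The offset from the TSS ranged from −148 bp at ArgRS-m to −18 bp at SerRS, with a median of −81 bp, and 9 of 9 were upstream, beside 81.1% of all bound genes. The median over all bound genes was −73.5 bp. For the cytosolic members the median was −81 bp, and the mitochondrial pair stood at −63 bp (LeuRS-m) and −148 bp (ArgRS-m).

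**Figure D4:**
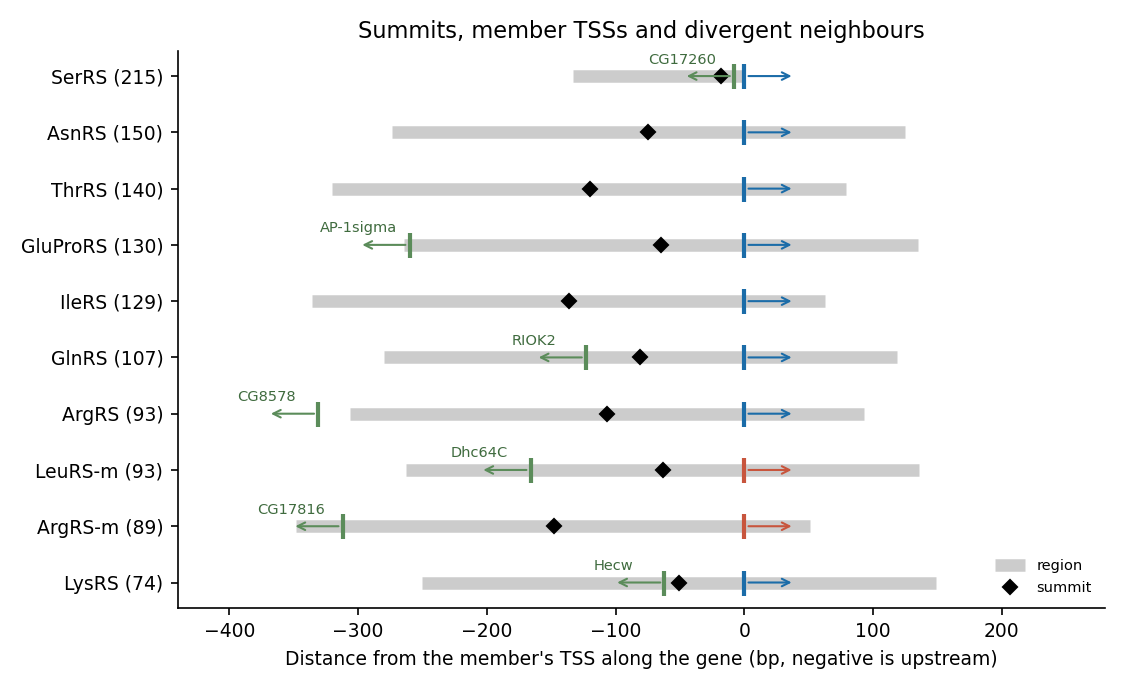
Regions (grey), summits (diamonds) and TSSs of the 9 bound members and LysRS, with distance in bp from the member's TSS along the gene; blue and red arrows give the start and direction of cytosolic and mitochondrial members, green arrows those of neighbouring genes, and numbers in brackets the pooled height. The 7 neighbours drawn all point away from the member, and the TSS of CG17260 lies 8 bp from that of SerRS.

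Many of these peaks were shared with a gene that starts on the other strand. For 6 of 9 bound members a TSS of another protein-coding gene lay within 250 bp of the summit, beside 47.3% of all bound genes. The neighbours were CG17260 at SerRS, AP-1sigma (a clathrin adaptor subunit) at GluProRS, RIOK2 (a kinase of the RIO family) at GlnRS, CG8578 at ArgRS, Dhc64C (a heavy chain of cytoplasmic dynein) at LeuRS-m and CG17816 at ArgRS-m. At SerRS the summit lay 10 bp inside CG17260, and at the others it lay between the TSSs of the pair. A peak at such a pair of genes cannot be given to either of them from these lists.

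The member's own TSS was nearest to the summit for 7 of 9 bound members, beside 77.5% of all bound genes. The exceptions were SerRS, where the TSS of SerRS was 18 bp and that of CG17260 10 bp from the summit, and GlnRS, where the distances were 81 bp for GlnRS and 42 bp for RIOK2. Counting only members with the nearest TSS left 7 of 33, beside 13.6% of all genes, of which 5 were cytosolic and 2 mitochondrial. AsnRS, ThrRS and IleRS had no TSS of another protein-coding gene within 250 bp of the summit. Their peaks were thus the highest among members without such a neighbour. Noncoding genes were not searched.

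Below the optimal set 8 of 16 regions also had a neighbour, beside 24.5% of all genes with a region there, and each of these started on the opposite strand. The TSS of LysRS was 51 bp from its summit and that of Hecw, which encodes a ubiquitin ligase, 11 bp. The TSS of TrpRS was 60 bp from its summit and that of Vps16A, for a subunit of a vesicle tethering complex, 55 bp. For AlaRS-m, AspRS and CysRS-m the neighbours Fitm, Nmda1 and O-fut1 were also the nearer ones.

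The bound members were spread over 4 of the 5 chromosome arms that hold members. Of 6 members on 2L 3 were bound (17.1% of all genes on that arm), of 6 on 3R 3 (19.6%), of 10 on 3L 2 (18.3%) and of 3 on X 1 (14.7%). Of 8 members on 2R 0 were bound, beside 17.1% of all genes on that arm, and numbers this small allow no reading of a difference between arms. The highest member there was CysRS (63.4), followed by AspRS (62.8) and ValRS (56.1).

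Promoter elements were sought at every annotated TSS, counting positions from 1 at the TSS and −1 before it. TATAAA had to start between −40 and −20 with at most 1 mismatch. The initiator was TCAGTT, in which G could also be T and the last base C, with at most 1 mismatch and its A between −10 and 10. The downstream promoter element (DPE) was AGACG with at most 1 mismatch, starting at 28 counted from that A. TCT, the polypyrimidine initiator of ribosomal protein genes, was CCTTTC, in which the first and the last base could be either pyrimidine, with its second base between −2 and 2. Within 100 bases before and 50 from the TSS, on both strands, the search was for the DNA replication-related element DRE (TATCGATA with at most 1 mismatch), Motif 1 and Motif 6 (at most 1 mismatch), Motif 7, GAGAGAG, the Zelda motif CAGGTAG and the E-box CAGCTG. Matches of different motifs may overlap, and a match is only a match of letters.

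**Figure D5:**
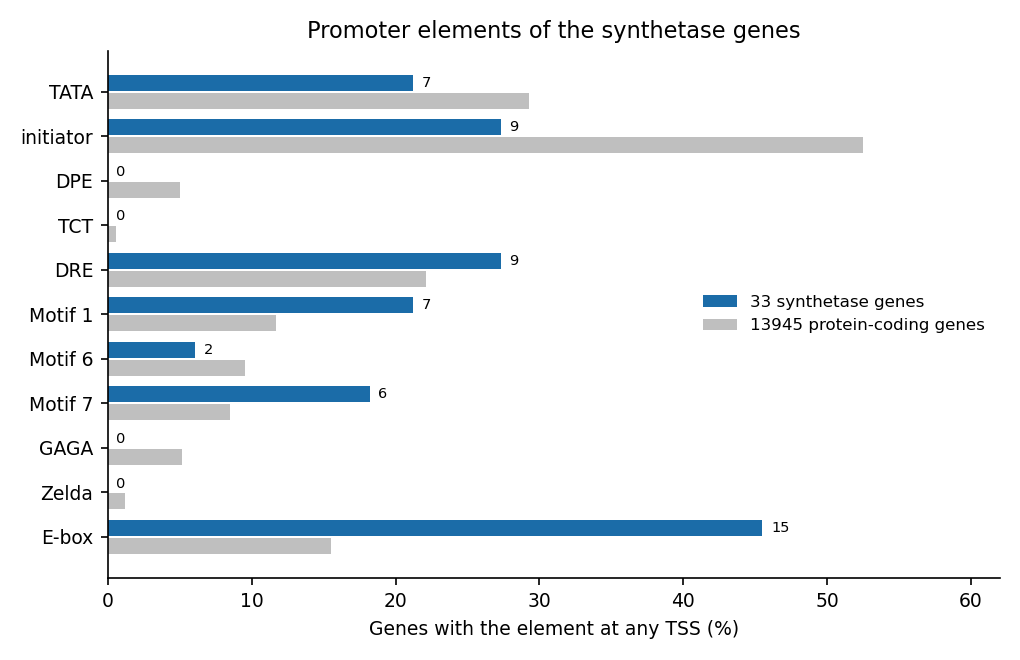
Percent of the 33 synthetase genes (blue, with the number of genes) and of all 13945 protein-coding genes (grey) with each element at any TSS. The E-box bar of 15 genes is the longest for the synthetase genes, and the initiator bar, with 9 genes, is shorter than that of all genes.

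The E-box was the element found at most members. It was present at 15 of 33 (45.5%), beside 15.5% of all protein-coding genes, namely at 7 of 18 cytosolic and 8 of 15 mitochondrial genes. Among bound members it was at 6 of 9, beside 24.7% of all bound genes. Among the unbound it was at 9 of 24, beside 13.5% of all unbound genes. The share was thus above that of all genes for bound and unbound members and in both classes, with no test made. In a window 200 bp farther downstream, added after the values were seen, it was at 7 of 33 members, beside 10.7% of all genes. Among bound members it was there at 2 of 9, beside 13.3% of all bound genes. The members' share was thus above that of all genes in this window too. Its 6 occurrences at bound members are shown with 10 bases on each side, the E-box in capitals.

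The sites are printed along the coding strand, from the farthest upstream to the farthest downstream of the TSS.
IleRS (chr3L:22288576-22288601, plus strand): gtgctgtcgtCAGCTGattatcaagg
ArgRS (chrX:15844177-15844202, minus strand): gtgacatcacCAGCTGttatcgttat
LeuRS-m (chr3L:4825853-4825878, plus strand): tgcagagaaaCAGCTGttcgattgta
SerRS (chr2L:3037233-3037258, minus strand): cagcactgccCAGCTGacgaaaagcc
ArgRS-m (chr3R:7887056-7887081, plus strand): gatgtcaaaaCAGCTGatgtgcagcg
GluProRS (chr3R:23958348-23958373, minus strand): tagacgttagCAGCTGgccgtactcg
They lay at −79 to −74 in IleRS, −47 to −42 in ArgRS, 11 to 16 in LeuRS-m, 16 to 21 in SerRS, 22 to 27 in ArgRS-m and 29 to 34 in GluProRS. In SerRS the position is counted from the downstream of its 2 TSSs, while the summit lay by the upstream one. The other 5 were counted from the TSS nearest to the summit. The positions thus had no common distance from the TSS.

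Elements typical of promoters of broadly expressed genes were present at some members, not all of them at a share above that of all genes. DRE was at 9 of 33 members (27.3%, beside 22.1% of all genes), of which 6 were cytosolic and 3 mitochondrial. Motif 1 was at 7 (21.2%, beside 11.7% of all genes) and Motif 7 at 6 (18.2%, beside 8.52%). Motif 6 was at 2 (6.06%, beside 9.54% of all genes). Among the 9 bound members DRE was at 2 (34.6% of all bound genes), Motif 1 at 2 (21.7% of all bound genes), Motif 7 at 2 (18.7% of all bound genes) and Motif 6 at 0 (14.0% of all bound genes). DRE was at ArgRS and IleRS, in ArgRS as a pair of overlapping matches from −40 to −27, Motif 1 at GlnRS and ThrRS, and Motif 7 at GluProRS and SerRS. The Motif 7 of SerRS, like its E-box, was at the downstream TSS and not at that of the peak.

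The elements of focused promoters that the search covered were TATA, the initiator, DPE and TCT. TATA was at 7 of 33 members (29.3% of all genes), with ThrRS the 1 bound member among them, at a TSS other than that of its peak. The initiator was at 9 (52.5% of all genes), including bound GluProRS and ArgRS-m. In GluProRS it too was at a TSS other than that of the peak. No member had DPE (5.01% of all genes), TCT (0.595%), GAGA (5.17%) or the Zelda motif (1.17%). AsnRS was the 1 bound member with none of the 11 elements.

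Further genes of the pathway were taken from a list of 16 symbols, of which 14 were found in the annotation and 5 were bound, beside 17.6% of all protein-coding genes. The cytosolic phenylalanyl-tRNA synthetase is made of 2 kinds of subunit. beta-PheRS was bound with a pooled height of 112 (64.8 in replicate 1 and 43.4 in replicate 3). alpha-PheRS had only a lower region of height 38.1 (20.3 and 11.8 in the same order). The subunits of a single enzyme thus differed in height in each replicate.

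AIMP1, AIMP2 and AIMP3 encode scaffold proteins of the complex that holds several synthetases in animal cells. AIMP1 was bound with a height of 107, AIMP3 had a region of 49.7 and AIMP2 had none within 250 bp. Of the genes of the mitochondrial amidotransferase that makes glutaminyl-tRNA, GatA (151.8) and GatC (95.2) were bound and GatB (52.7) was not. Slimp, a mitochondrial relative of seryl-tRNA synthetase, and Dtd, for a deacylase of wrongly charged tRNA, had regions of 44.5 and 50.3.

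The elongation factor eEF1alpha carries charged tRNAs to the ribosome. eEF1alpha1 had a pooled height of 378, with a relative height of 3.29 ± 0.0591 (SD, n = 2), above every synthetase gene. eEF1alpha2 had a region of 45.0. Of the genes of the mitochondrial counterpart, mEFTu2 had a region of 42.1 and mEFTu1 none within 250 bp.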

How the data were processed

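The authors carried out ChIP-seq on 2 biological replicates of NC2beta-eGFP embryos. Per the labels, chromatin was sonicated to 200 to 800 bp; the description names an antibody against GFP and the antibody field names NC2β. The deposited lists give a peak height (used here as a score), a summit and, as the −log10 of a q-value, a second score, which the authors' lists hold but which was not used. Per the deposited file lists, regions were called for each replicate and for the pooled replicates, each with a further alignment that was not analysed here, and the optimal set was chosen for irreproducible discovery rate. No aligner or caller is named in the sources used here. The 3897 optimal peaks were the 3897 highest pooled regions. Read totals, and so the depth behind a height, are unknown. Lists in build dm3 were not used.

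TSSs came from the Ensembl BDGP6 annotation and bases from the Release 6 genome (dm6), in which 99.8% of start codons read ATG and all 93897 dm6 regions lay within their chromosomes. A gene's highest region with a summit within 250 bp of any TSS was taken. Python 3.11.15, pandas 2.3.3 and scipy 1.17.1 were used, and the search for regions and elements was tested on simulated data. Values are given for every bound member, the 3 highest unbound members of each class and every member without a region. The printed promoters follow the same ranking and leave out 1 chromosome arm. The E-box sites were added after the values were seen. Members and lists were chosen with earlier results of these data known. Alternatives were each replicate alone, the highest 50% of peaks, other distances, canonical TSSs, the nearest TSS, other replicate scaling, and other element searches.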

Additional observations from a re-analysis of the deposited data

How the results depend on the processing

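The count of bound members was 9, beside 17.6% of all genes. It was 8 from replicate 1 alone (17.9% of all genes) and 10 from replicate 3 alone (16.4%). Within 500 bp the count stayed at 9 while the share of all genes rose to 20.7%. With canonical TSSs it was 9 (15.4% of all genes), and with the member's TSS nearest to the summit 7 (13.6%). It was 5 within 100 bp (10.5%) and 5 for the 50% of peaks that were highest (9.01%). For cytosolic genes, 7 became 4 within 100 bp, and for mitochondrial genes 2 became 1 within 100 bp and 0 for the highest peaks. The first of these settings narrows the distance and the second shrinks the set of peaks, and both lowered the share of all genes too. The median pooled height of 129 became 140.4 for the highest peaks, and 48.3 to 71.1 from the lists of single replicates, which have scales of their own. The median offset of −81 bp became −65 bp within 100 bp, which bars farther summits. The median relative height of 1.17 became 3.90 when scaled to whole lists, which hold more low regions, and the median log2 ratio between replicates turned from −0.11 to 0.13.

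Of 33 members, an initiator was found at 9, or 1 without mismatches, TATA at 7, or 0 without mismatches, Motif 1 at 7 or 3, and DRE at 9 or 6. With 1 TSS per gene DRE was at 5. Searches without mismatches or with 1 TSS per gene covered members only. Whether all genes lose these elements to the same degree was therefore not tested. The E-box was at 15, and in 3 searches added after seeing the data at 13 with 1 TSS per gene, at 7 in a window 200 bp downstream (10.7% of all genes) and at 28 as CANNTG (62.8% of all genes). The unknown read totals limit what heights of weak regions can show, and a gene without a region may be bound below the list's lowest height. The recovery of open promoters irrespective of NC2beta was not tested.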
